A study of Mus musculus with 17 samples.

Results

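The 8 genes described here, *Aldh1a3*, *Serpina7*, *Gast*, *Cck*, *Neurog3*, *Sox9*, *Cd81* and *Slc5a10*, are named in the field as markers of β cell dedifferentiation, the state in which an insulin-producing cell loses its mature profile. They were chosen by name and were followed through every group of the study, 8 of the 78239 gene identifiers of a first table of islet RNA-seq and of the 73212 of a second. The first table holds 12 male mice on a C57BL6/N background, 3 in each of 4 groups. Wildtype mice and their *Pax4* R192H littermates, homozygous for a knock-in in the endogenous *Pax4* allele that corresponds to the human variant, were taken at 12 weeks of age on a standard chow diet (SCD) or at 16 weeks after 4 weeks on a high-fat diet (HFD), so that age and diet changed together. The second table holds male mice aged 20 weeks, all homozygous for floxed *Pax4*, all treated with tamoxifen at 7 to 9 weeks and all fed the HFD for 8 weeks from 12 weeks of age. In it, 3 *Pax4* βiKO mice carried *Pdx1*-CreERT2 and 2 control mice carried no Cre, so that the Cre transgene and the loss of *Pax4* changed together. *Pdx1* is active in β cells and also in δ cells, so the driver is not limited to β cells alone.

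A β cell keeps its identity through transcription factors that hold insulin production and glucose sensing on and the genes of other fates off. Under lasting metabolic stress, mouse β cells can lower *Mafa* and *Slc2a2* and raise genes that a mature β cell keeps silent, among which *Aldh1a3* is the one most used. PAX4 is a paired homeodomain repressor that favours the β cell fate in the embryo, downstream of NEUROG3.

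*Aldh1a3* encodes a retinaldehyde dehydrogenase that makes retinoic acid. Its position in GRCm38, which underlies mm10, is chromosome 7, 66390890 to 66427517, minus strand. *Serpina7* encodes thyroxine-binding globulin, a serum carrier of thyroid hormone, at chromosome X, 139079257 to 139085236, minus strand. *Gast* (chromosome 11, 100334407 to 100336996, plus strand) and *Cck* (chromosome 9, 121489824 to 121495694, minus strand) encode gastrin and cholecystokinin, related gut peptide hormones that share their active end. *Neurog3* (chromosome 10, 62133090 to 62134763, plus strand) and *Sox9* (chromosome 11, 112782224 to 112787760, plus strand) encode transcription factors of endocrine and of ductal progenitors. *Cd81* (chromosome 7, 143052739 to 143067934, plus strand) encodes a tetraspanin of the cell surface, and *Slc5a10* (chromosome 11, 61672781 to 61720826, minus strand) a sodium-dependent sugar transporter. In GENCODE M21, *Neurog3* is overlapped on the opposite strand by *Fam241b*, *Cd81* by *R74862*, and *Slc5a10* by *Grap* and *Fam83g*. The libraries were stranded, but whether the counting used strand is not given in the sources used here, so counts of these 3 genes are uncertain to that extent.

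The 250 bases before the start of transcription are shown for the 3 hormone or carrier genes with the largest differences for which the RefSeq table (GRCm38.p6) holds a promoter. That table matched 6 of the 8 genes, all but *Aldh1a3* and *Sox9*, and of 2 windows for *Serpina7* the first is shown. Each is written 5′ to 3′ on the strand of its gene, and capitals mark matches, on either strand, to GTTAAT (the core of an HNF1 site), TAATTA (a homeodomain core), TGTTTAC (a forkhead motif) and CANNTG (an E-box, the motif of NEUROG3 and other basic helix-loop-helix factors). Where matches touch or overlap, the capitals run together.
*Serpina7* (chrX:139085237-139085486, minus strand): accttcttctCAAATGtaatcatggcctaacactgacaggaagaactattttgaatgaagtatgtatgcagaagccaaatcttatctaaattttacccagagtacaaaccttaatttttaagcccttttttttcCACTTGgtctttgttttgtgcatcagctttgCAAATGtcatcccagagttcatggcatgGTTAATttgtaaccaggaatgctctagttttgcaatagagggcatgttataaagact
*Gast* (chr11:100334157-100334406, plus strand): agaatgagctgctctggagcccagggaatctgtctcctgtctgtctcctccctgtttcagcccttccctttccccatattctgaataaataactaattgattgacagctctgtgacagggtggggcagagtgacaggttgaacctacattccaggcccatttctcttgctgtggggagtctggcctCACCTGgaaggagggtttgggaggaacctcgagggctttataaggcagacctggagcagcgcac
*Cck* (chr9:121495695-121495944, minus strand): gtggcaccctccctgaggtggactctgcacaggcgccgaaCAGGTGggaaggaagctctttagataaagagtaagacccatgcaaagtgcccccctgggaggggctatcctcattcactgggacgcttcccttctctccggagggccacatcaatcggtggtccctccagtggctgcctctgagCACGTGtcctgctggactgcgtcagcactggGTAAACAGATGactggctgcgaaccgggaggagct
The *Serpina7* window held 1 match to the HNF1 core, 57 to 52 bases before the start, and 3 E-boxes. The *Cck* window held 1 forkhead match, 35 to 29 bases before the start, and 3 E-boxes, of which the last overlaps the forkhead match, and the *Gast* window held 1 E-box. TAATTA was in none of these windows. Of 32851 promoter windows of the same length, 6.43% held GTTAAT, 4.84% TAATTA, 3.17% TGTTTAC and 66.2% CANNTG, and the matches are a description of letters, not of bound sites.

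A mouse of the first table had 24268157 to 42679645 expected counts in total, and one of the second 28618835 to 31887537. In the first, 2 genes that the annotation does not name took 36.2% to 53.3% of the counts. Levels are CPM, counts scaled to the library's TMM-normalized size, made separately in each table, so levels are not compared across tables. *Pax4* itself was listed at 0 counts in all 17 mice, wildtype and control included, and does not check the genotypes. The islets were also read for other cells. The summed level of 20 acinar (digestive enzyme) markers ranged on the SCD from 13800 to 27900 CPM in wildtype and from 14100 to 20100 CPM in *Pax4* R192H mice. With HFD feeding it ranged from 17300 to 26200 CPM in wildtype and from 38400 to 102000 CPM in mutant mice, the group in which *Aldh1a3* and *Serpina7* were also highest. In the second table it was 111000 and 25700 CPM in the control mice and between 17600 and 87400 CPM in *Pax4* βiKO mice. In bulk RNA, more cells of a type and more RNA per cell cannot be told apart.

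*Aldh1a3* was low on the SCD and highest in HFD-fed *Pax4* R192H mice. On the SCD its level was 3.27, 2.47 and 3.69 CPM in wildtype and 3.28, 5.50 and 5.23 CPM in *Pax4* R192H mice. It was 4.56, 28.7 and 15.5 CPM in HFD-fed wildtype mice and 68.3, 81.6 and 49.1 CPM in HFD-fed *Pax4* R192H mice. All 3 HFD-fed mutants lay above all other mice of the table, the HFD-fed wildtype mice lay above the SCD-fed wildtype mice, and the SCD groups overlapped. The group means rose in the order SCD-fed wildtype (3.14 ± 0.622 CPM, SD, n = 3), then *Pax4* R192H on the same diet (4.67 ± 1.21), HFD-fed wildtype (16.2 ± 12.1) and HFD-fed *Pax4* R192H (66.3 ± 16.3). Of these neighbours, only the last pair did not overlap. Relative to its mean the spread was wider in HFD-fed wildtype mice (CV 74.3%) than in HFD-fed *Pax4* R192H mice (CV 24.6%). Among the former, 1 mouse was near the SCD level and another was between the genotypes.

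*Serpina7* stood apart in 1 of the 4 groups. With the SCD it was 10.9, 12.3 and 9.51 CPM in wildtype and 7.96, 9.29 and 12.6 CPM in mutant mice. On the HFD it was 7.06, 20.6 and 9.74 CPM in wildtype mice and 79.4, 98.9 and 92.2 CPM in *Pax4* R192H mice. The first 3 groups overlapped one another, with means of 10.9 ± 1.40, 9.95 ± 2.39 and 12.5 ± 7.19 CPM (SD, n = 3), and the HFD-fed mutants stood apart at 90.2 ± 9.91 CPM. The wildtype mouse with the highest *Aldh1a3* on the HFD, 28.7 CPM, was also the one with the highest *Serpina7*, 20.6 CPM, and the highest *Cd81*, 41.6 CPM. It also had the highest acinar sum of its group, 26200 CPM, and the lowest *Slc2a2*, 489 CPM against 701 and 688 CPM, and was singled out after its values were seen.

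**Figure D1:**
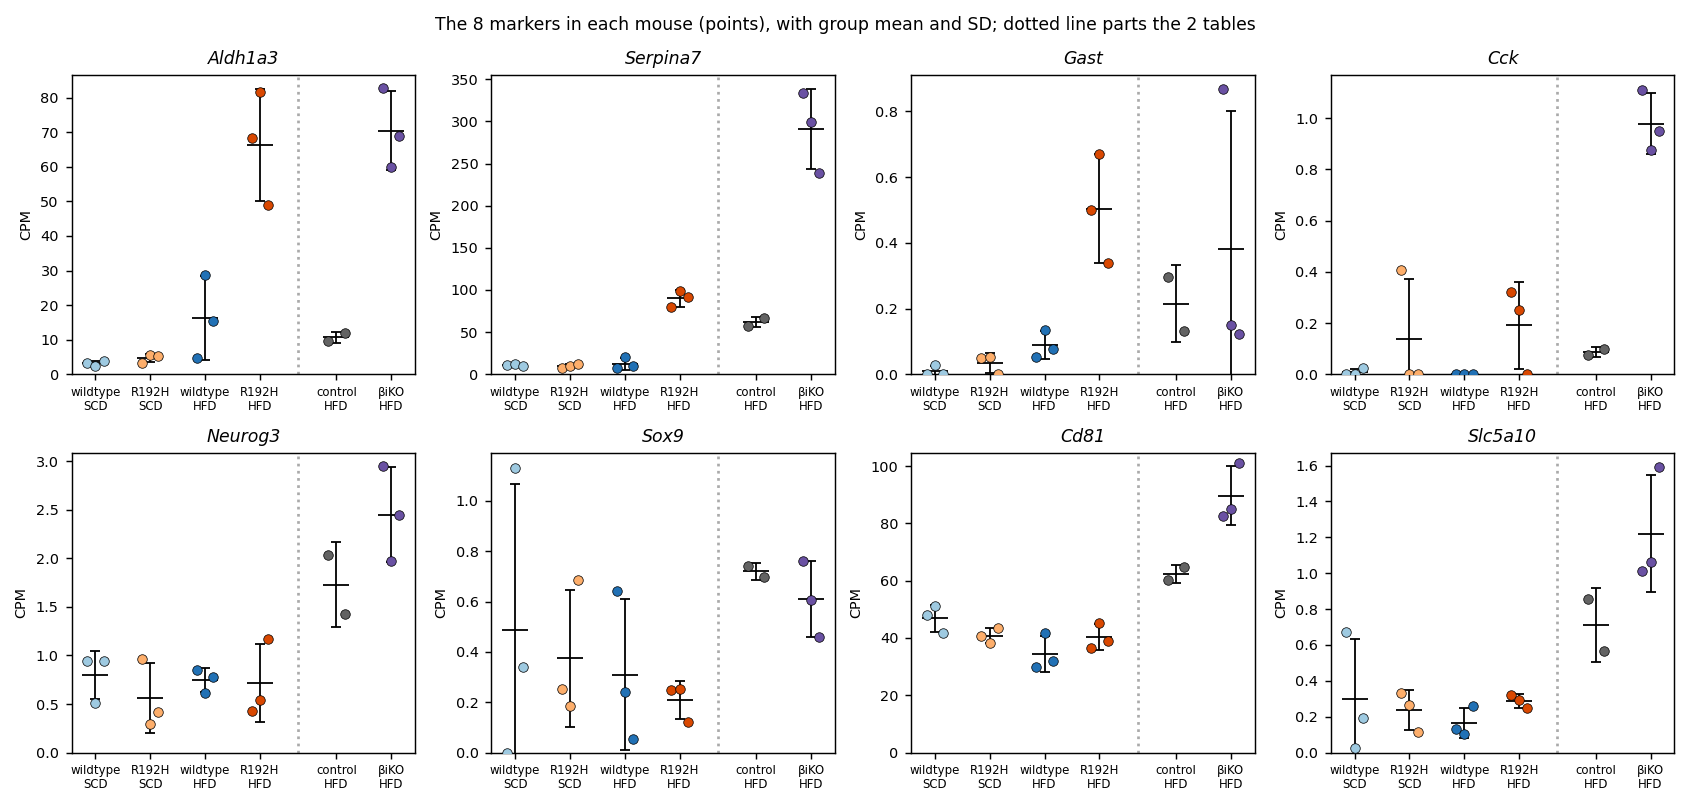
Level of each of the 8 genes in every mouse, in CPM on a linear axis that starts at 0, with 1 panel per gene. Points are mice, horizontal bars group means and error bars the SD (n = 3, and n = 2 for control), and the dotted line separates the first table from the second, which were normalized apart. *Aldh1a3* reaches 49.1 to 81.6 CPM and *Serpina7* 79.4 to 98.9 CPM in HFD-fed *Pax4* R192H mice, above every other mouse of the first table.

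The genotype comparison on the HFD asks whether the variant alters these genes under metabolic stress. *Aldh1a3* was higher in *Pax4* R192H than in wildtype islets by a log2 fold change of 2.03 (SE 0.45, edgeR quasi-likelihood test, adjusted p = 0.0355) and *Serpina7* by 2.86 (SE 0.32, adjusted p = 0.0012). Both were higher in 3 of 3 mutants than in all wildtype mice, as 13% of genes were. Both were called, which takes an adjusted p below 0.05 with a log2 fold change beyond 0.5 in either direction. They were the 2 called among the 6 of the 8 that passed the filter on low counts, where 2.28% of all 19137 genes tested were called and 1.46% were called higher. The call on *Aldh1a3* was lost without any 1 of the 3 mutants or without wildtype mouse 3 (adjusted p from 0.0643 to 0.139), and its log2 fold change ran from 1.59 without wildtype mouse 1 to 2.72 without wildtype mouse 2. The call on *Serpina7* was kept without each mouse in turn (log2 fold changes from 2.58 to 3.42, adjusted p from 7.4e-05 to 0.0196). With the acinar level as a covariate neither was called, at 1.49 (SE 0.65, adjusted p = 0.664) and 2.66 (SE 0.45, adjusted p = 0.169), a model in which 0 of all genes tested were called. The covariate, the mean log2 CPM of the acinar markers, was at least 8.81 in HFD-fed mutants and at most 8.26 in all other mice of this table. Fits that compare these mutants therefore cannot tell the acinar level and their group apart.

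The other members showed smaller differences or too few counts on the HFD. *Neurog3* was at 0.853, 0.614 and 0.781 CPM in wildtype and 0.429, 0.546 and 1.17 CPM in *Pax4* R192H mice, a log2 fold change of -0.06 with a 95% interval from -1.22 to 1.10. *Cd81*, the only other abundant member, was at 29.7, 41.6 and 31.9 CPM in wildtype and 36.4, 45.3 and 38.9 CPM in mutant mice. Its log2 fold change of 0.22 had an interval from -0.09 to 0.53 (adjusted p = 0.489), and the groups overlapped. *Slc5a10* was counted 5, 3 and 10 times in wildtype and 9, 7 and 8 times in mutant mice, and *Sox9* 24, 7 and 2 times against 7, 6 and 4 times. Their intervals, from -1.17 to 2.71 for *Slc5a10* and from -3.05 to 1.88 for *Sox9*, were too wide to tell a difference.

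The hormone genes *Gast* and *Cck* did not pass the filter in the first table and were not tested there. *Gast* was counted 2, 4 and 3 times in HFD-fed wildtype mice and 14, 16 and 11 times in HFD-fed *Pax4* R192H mice, a range of 0.0533 to 0.136 CPM against 0.339 to 0.671 CPM. The groups did not overlap, as 13% of the tested genes did not in this direction. Summed over mice, 41 counts against 9 gave a ratio of 5.69 (exact 95% interval of the counting error, 2.73 to 13.3). The interval does not cover the spread between mice, and edgeR without a filter gave an adjusted p of 0.485 for a log2 fold change of 2.47. On the SCD *Gast* was counted 0, 1 and 0 times in wildtype and 2, 2 and 0 times in mutant mice, all at or under the floor of 3 counts per library. *Cck* was counted 9, 6 and 0 times in HFD-fed *Pax4* R192H mice and not at all in the 3 HFD-fed wildtype mice, where a floor of 3 counts over the group stands for 0.0285 CPM. Pooled, the 15 counts against 0 gave a ratio with a lower exact 95% counting limit of 4.48. With the wildtype mice set at that floor the ratio was 6.25, while 1 of the 3 mutant mice was itself at 0 counts. Without a filter edgeR gave an adjusted p of 0.126. On the SCD *Cck* was counted 0, 0 and 1 times in wildtype and 16, 0 and 0 times in mutant mice. The counts thus differed between mutant mice on either diet, and a count of 0 sets only an upper limit on the level.

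On the SCD none of the 6 tested members was called by edgeR or DESeq2, and none had an unadjusted p below 0.05. *Aldh1a3* had a log2 fold change of 0.57 with a 95% interval from -0.48 to 1.61, and *Serpina7* one of -0.14 with an interval from -0.79 to 0.52. *Cd81* was at 47.9, 51.1 and 41.7 CPM in wildtype and 40.7, 38.3 and 43.4 CPM in *Pax4* R192H mice (-0.20, interval from -0.51 to 0.11). *Neurog3* spread from 0.51 to 0.943 CPM in wildtype and from 0.29 to 0.966 CPM in mutant mice. Across all genes edgeR called 0%, with 629 (3.29%) at an unadjusted p below 0.05, and DESeq2 called 23, so a lack of calls among the members was the background of this comparison.

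The interaction, the genotype difference on the HFD minus that on the SCD, tests whether the mutant effect differs between the diets. For *Serpina7* it was 3.00 on the log2 scale (SE 0.43, edgeR adjusted p = 0.0264) in a comparison that called 0.131% of genes. For *Aldh1a3* it was 1.47, with a 95% interval from 0.06 to 2.88 and an adjusted p of 0.42, so that a difference between diets was not called for this gene. It ran from 1.03 to 2.16 when 1 mouse was left out and was 0.86 with the acinar covariate, none of them called. It was called without a filter (1.48, adjusted p = 1.08e-06), where 708 genes in all were called against 25. The fit without a filter also called 261 genes on the SCD against 0, so calls from it alone are not taken as support. For *Cd81* it was 0.43, with an interval from -0.01 to 0.86 (adjusted p = 0.461). The call on *Serpina7* was lost in 8 of the 12 fits that each left out 1 mouse, where the interaction was between 2.71 and 3.09 (adjusted p from 0.0517 to 0.0891). It was highest, at 3.56 (adjusted p = 0.000547), without HFD-fed wildtype mouse 2. The call was also lost with the acinar covariate, where it was 2.78 (adjusted p = 0.464).

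**Figure D2:**
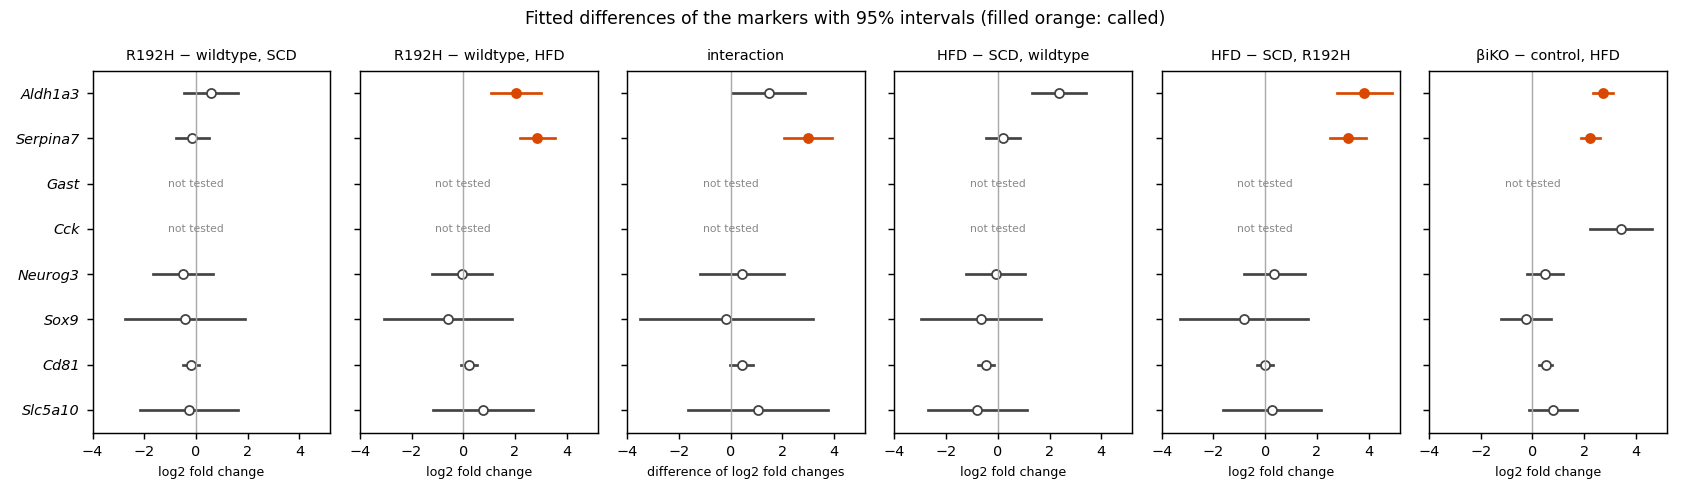
Fitted log2 fold changes (points) with 95% intervals (lines) in 6 comparisons, with *Gast* marked as not tested in any and *Cck* as tested in *Pax4* βiKO mice alone; filled orange points are called and open points are not. *Aldh1a3* and *Serpina7* are called on the HFD, in *Pax4* R192H mice between diets and in *Pax4* βiKO mice, *Serpina7* also in the interaction, and no member is called on the SCD or between diets in wildtype mice.

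HFD feeding together with the 4 weeks of greater age was compared within each genotype. In *Pax4* R192H mice *Aldh1a3* rose by 3.83 on the log2 scale (SE 0.50, edgeR adjusted p = 0.000404) and *Serpina7* by 3.19 (SE 0.32, adjusted p = 0.000109), 14.2-fold and 9.09-fold. In these mice 15.7% of all genes were called between the diets. With the acinar covariate neither was called, at 3.11 (adjusted p = 0.113) and 2.92 (adjusted p = 0.0506), and 51 of all genes were. Of the 20 acinar markers 19 were called higher between the diets in mutant mice, at a median log2 fold change of 1.85, where 9.75% of all genes were. In wildtype mice *Aldh1a3* was higher on the HFD by 2.36 (SE 0.48, adjusted p = 0.0563), which missed the threshold although the groups did not overlap, as 8.47% of genes did not in this direction. It was past the threshold in 4 alternatives, among them DESeq2 (adjusted p = 0.00371) and the fit without HFD-fed wildtype mouse 1, whose level was the lowest (log2 fold change 2.81, adjusted p = 0.00248). In the other 5 fits that left out 1 mouse it was not called (adjusted p from 0.0768 to 0.222), with the smallest log2 fold change, 1.67 (adjusted p = 0.153), without HFD-fed wildtype mouse 2. *Serpina7* in wildtype mice had a log2 fold change of 0.19 with an interval from -0.46 to 0.84, and -0.37 without mouse 2. *Cd81* was lower on the HFD in wildtype mice by a log2 fold change of -0.45 (interval from -0.76 to -0.14, adjusted p = 0.169) without overlap of the groups, as 9.46% of genes were, and it was not called, like the other members in this comparison, where 0.371% of all genes were called. Stromal and immune markers were lower in the same comparison, at median log2 fold changes of -2.54 and -1.51, with 0 and 2 of them called. Their part in the *Cd81* difference was not tested. *Gast* was counted 41 times in HFD-fed and 4 times in SCD-fed mutant mice, a ratio of 12.6 (exact 95% counting interval, 4.56 to 48.4), and without a filter edgeR gave an adjusted p of 0.0682.

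Loss of *Pax4* in adult mice was the comparison of the second table. *Aldh1a3* was at 9.52 and 11.8 CPM in control mice and 82.7, 59.9 and 68.9 CPM in *Pax4* βiKO mice. *Serpina7* was at 57.6 and 66.3 CPM in control mice and 334, 299 and 239 CPM in *Pax4* βiKO mice. Neither gene overlapped between the groups, where 15.9% of all genes were higher without overlap. By p-value they ranked 3 and 4 of the 20167 genes tested. The log2 fold changes were 2.72 (SE 0.17, edgeR adjusted p = 0.00232) for *Aldh1a3* and 2.23 (SE 0.16, adjusted p = 0.00417) for *Serpina7*, in a comparison that called 0.0893% of genes. With the acinar covariate they were 2.73 and 2.24, both still called, and the acinar markers had a median log2 fold change of -0.68 between *Pax4* βiKO and control. Without control mouse 1 neither was called (adjusted p = 0.0993 and 0.179), and *Serpina7* was not called without control mouse 2 (0.0951) or *Pax4* βiKO mouse 2 (0.0919). With 1 control left, its spread is assumed to be that of the *Pax4* βiKO mice.

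No other member was called in the second table, although 3 more of them were higher in all *Pax4* βiKO mice than in both control mice. *Cck* was counted 2 and 3 times in the control mice and 32, 29 and 31 times in the *Pax4* βiKO mice. The pooled ratio was 11.1 (exact 95% counting interval, 4.59 to 35.0), the fitted log2 fold change 3.42 (SE 0.52) and the adjusted p 0.111. The gene passed the filter only through its counts in the *Pax4* βiKO mice, so its fit and lack of overlap are not independent of that choice. Without a filter edgeR called it (adjusted p = 8.5e-05) at a larger SE of 0.69, in a fit that called 697 genes in all against 18. *Cck* thus had low but uniform counts in the knockout mice, unlike in *Pax4* R192H mice. *Cd81* was at 60.3 and 64.7 CPM in control and 82.5, 85.1 and 101 CPM in *Pax4* βiKO mice, a log2 fold change of 0.52 (interval from 0.27 to 0.77, adjusted p = 0.176), and was called by DESeq2 (adjusted p = 0.00231) and without a filter (9.52e-05). *Slc5a10* was at 0.855 and 0.564 CPM in control and 1.01, 1.06 and 1.59 CPM in *Pax4* βiKO mice (log2 fold change 0.79, interval from -0.13 to 1.71). These 3 and the called pair made 5 members higher without overlap, where 15.9% of all genes were. The tally includes *Cck*, which was tested only because of its counts in the *Pax4* βiKO mice. *Neurog3* overlapped, at 2.04 and 1.43 CPM against 2.95, 1.97 and 2.45 CPM (0.50, interval from -0.20 to 1.20), as did *Sox9*, at 0.743 and 0.696 CPM against 0.763, 0.605 and 0.46 CPM. *Gast* was not tested, and its 25 counts in *Pax4* βiKO mouse 1 stood against 5 and 4 in the others and 8 and 4 in the control mice.

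**Figure D3:**
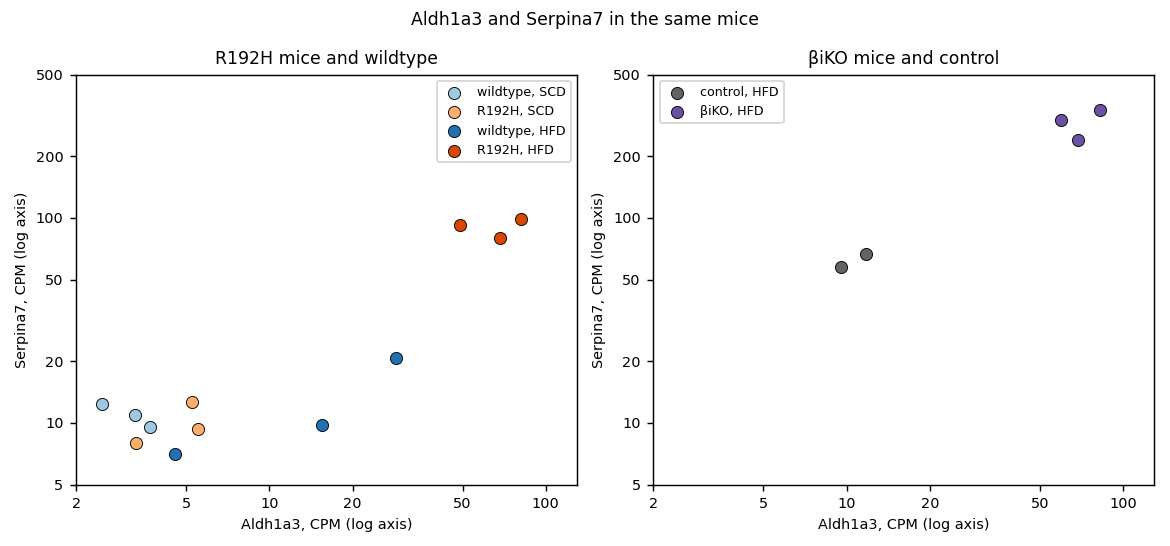
*Serpina7* against *Aldh1a3* in the same mice, in CPM on log axes, with the first table left and the second right. HFD-fed *Pax4* R192H mice and *Pax4* βiKO mice lie at the upper right of their panels, and HFD-fed wildtype mice spread along *Aldh1a3* from 4.56 to 28.7 CPM at a *Serpina7* of 7.06 to 20.6 CPM.

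Divided by exon length, the order of the members themselves differed between groups. In HFD-fed wildtype mice *Cd81* was the most abundant, at a mean level of 12 CPM per kb, followed by *Serpina7* at 5.10 and *Aldh1a3* at 3.52 CPM per kb. In HFD-fed *Pax4* R192H mice *Serpina7* led at 36.8 CPM per kb, followed by *Aldh1a3* at 14.4 and *Cd81* at 14 CPM per kb. In *Pax4* βiKO mice *Serpina7* was at 119, *Cd81* at 31.1 and *Aldh1a3* at 15.3 CPM per kb. *Gast*, *Cck*, *Neurog3*, *Sox9* and *Slc5a10* stayed below 1.5 CPM per kb in every group mean.

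The acinar markers moved with genotype on the HFD. All 20 had positive log2 fold changes in HFD-fed *Pax4* R192H mice, 19 without overlap (13% of all genes), at a median of 1.52, and 4 were called higher (*Prss2*, *Cela3b*, *Pnliprp1* and *Ctrc*) where 1.46% of all genes were, or 0 to 2 of the 20 when any 1 mouse was left out and 17 by DESeq2. The mutant mouse with the highest acinar sum, 102000 CPM, had the lowest *Serpina7* of its group, 79.4 CPM, and a middle *Aldh1a3*, 68.3 CPM. Without it, the other two mutant mice were at 38400 and 38800 CPM of acinar markers and *Serpina7* was higher than in wildtype by 2.94 on the log2 scale (adjusted p = 0.00483), while *Aldh1a3*, higher by 2.01, was not called (adjusted p = 0.102). In the second table, control mouse 1 had the highest acinar sum of all, 111000 CPM, with 9.52 CPM of *Aldh1a3*, and control mouse 2 had 25700 CPM with 11.8 CPM of *Aldh1a3*. Within the *Pax4* βiKO mice the acinar sum and *Aldh1a3* had the same order, with 87400 CPM and 82.7 CPM in mouse 1, 23600 and 68.9 CPM in mouse 3 and 17600 and 59.9 CPM in mouse 2. *Serpina7* was also highest in mouse 1, at 334 CPM, and lowest in mouse 3, at 239 CPM. The summed duct markers, of interest for *Sox9*, were 139 to 147 CPM in HFD-fed *Pax4* R192H and 90.8 to 108 CPM in HFD-fed wildtype mice, and 286 to 347 against 227 to 229 CPM in *Pax4* βiKO and control mice. With a duct covariate *Aldh1a3* and *Serpina7* were called in both genotype comparisons. In the first table stromal and immune markers reached their highest sums in SCD-fed wildtype mice (49.3 to 269 and 57.8 to 114 CPM). In the second they were 94.5 to 107 and 63.2 to 78.7 CPM in control and 77.9 to 150 and 64.8 to 155 CPM in *Pax4* βiKO mice. Their part in the differences was not tested.

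**Figure D4:**
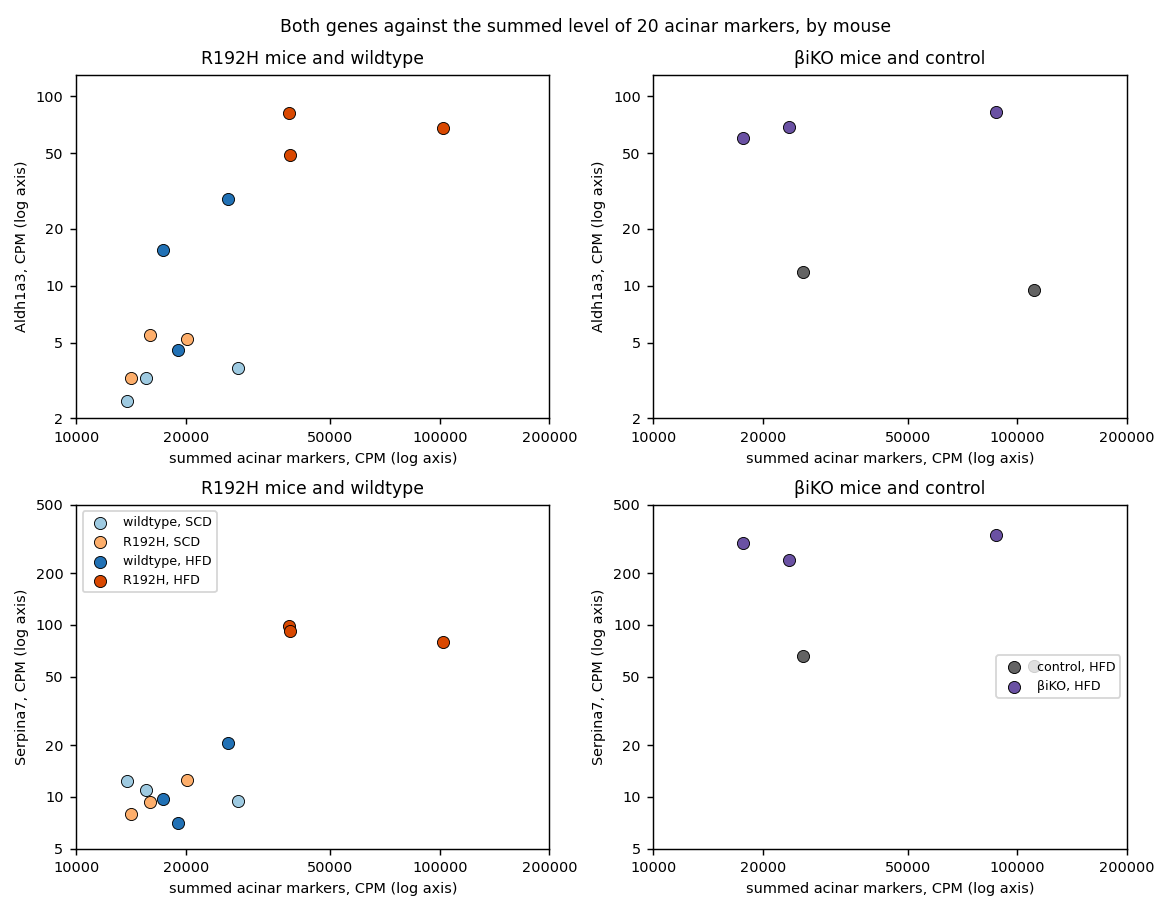
*Aldh1a3* (top) and *Serpina7* (bottom) against the summed level of 20 acinar markers in each mouse, in CPM on log axes, with the first table left and the second right. HFD-fed *Pax4* R192H mice are right of and above the HFD-fed wildtype mice, and *Pax4* βiKO mice are above control mice at acinar sums of 17600 to 87400 CPM that overlap those of the control mice.

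Few genes that share a pathway with the members were called between genotypes, as few of all genes were. The shares of all genes called were 2.28% on the HFD, 0% on the SCD, 0.131% in the interaction and 0.0893% in *Pax4* βiKO mice. In lists this short, 0 or 1 called does not set a list apart from all genes. Of 11 tested genes of retinoic acid synthesis, carriage and reception, the pathway of *Aldh1a3*, edgeR called 0 in any genotype comparison. At an unadjusted p below 0.05 there were 2 on the HFD, where 15.9% of all genes were, and 2 in *Pax4* βiKO mice, where 12.8% were, and DESeq2 called 0 in any of them, with median edgeR log2 fold changes of 0 on the HFD and 0.06 in *Pax4* βiKO mice. Of 7 tested thyroid hormone genes, the context of *Serpina7*, *Ttr* (transthyretin, another thyroid hormone carrier) was called higher in HFD-fed *Pax4* R192H mice, at 1.16 (SE 0.19, adjusted p = 0.00731), where 1.46% of all genes were called higher, and 0 to 2 of the 7 were called when 1 mouse was left out. Of 7 tested receptors and processing enzymes of gastrin and cholecystokinin, *Pam*, which amidates such peptides, was called higher at 0.74 (SE 0.14, adjusted p = 0.0182), from 723, 866 and 817 CPM in wildtype to 1360, 1460 and 1200 CPM in mutant mice, and the 7 had a median log2 fold change of 0.36, with 1 of them called higher beside the same 1.46%, and 0 to 1 called when 1 mouse was left out. On the HFD DESeq2 called 2 of the thyroid hormone and 2 of the gastrin and cholecystokinin genes, and 1 of each both in the interaction and in *Pax4* βiKO mice, among 918, 314 and 251 genes that it called in all. None of the 10 tetraspanins and partners of *Cd81* and none of 3 tested relatives of *Slc5a10* was called by edgeR between genotypes, and DESeq2 called 1 tetraspanin gene, in the interaction. An unadjusted p below 0.05 was reached on the HFD by 2 tetraspanin genes and 1 relative of *Slc5a10* (15.9% of all genes), on the SCD by 3 and 1 (3.29% of all genes), in the interaction by 3 and 0 (11.2%) and in *Pax4* βiKO mice by 2 and 0 (12.8%). On the SCD the 3 were *Cd37* (-5.29), *Cd53* (-1.47) and *Tspan8* (0.30). Immune markers were also lower in the mutants there, 6 of 8 at an unadjusted p below 0.05 (median -1.64), and a link to the tetraspanin genes was not tested. Among 11 tested genes of the endocrine progenitor programme, the context of *Neurog3*, edgeR and DESeq2 called 0 in any genotype comparison, with 1 on the HFD and 4 in *Pax4* βiKO mice at an unadjusted p below 0.05, beside the 15.9% and 12.8% of all genes. Of them 8 were lower without overlap in *Pax4* βiKO mice (median -0.27), where 16.7% of all genes were. The median over all genes was within 0.01 of 0 in each genotype comparison.

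Other genes described in dedifferentiated or immature β cells gave *Gc* and *Vgf* as called in HFD-fed *Pax4* R192H mice, 2 of 11 tested, where 2.28% of all genes were called. The count was 2 without wildtype mouse 2, 0 without wildtype mouse 3 or mutant mouse 2, and 1 without any other mouse. *Vgf*, which encodes a secreted neuropeptide precursor, was at 6.40, 10.6 and 8.67 CPM in wildtype and 23.2, 26.3 and 22.0 CPM in mutant mice (log2 fold change 1.48, SE 0.25, adjusted p = 0.00983). It was also called between the diets in wildtype mice (adjusted p = 0.0465), where no member was. *Gc*, the vitamin D binding protein, was at 74.5, 245 and 128 CPM in wildtype and 384, 518 and 378 CPM in mutant mice (1.52, SE 0.35, adjusted p = 0.0414). In *Pax4* βiKO mice both were higher without overlap, as 15.9% of all genes were, and not called (adjusted p = 0.0631 for *Gc* and 0.197 for *Vgf*). DESeq2 called 2 of the 12 genes tested there.

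Of the β cell identity genes, 4 were lower with the variant. In HFD-fed *Pax4* R192H mice *Slc2a2* (the glucose transporter GLUT2), *Trpm5* (a cation channel), *Slc30a8* (a zinc transporter of insulin granules) and *Glp1r* (the GLP-1 receptor) were called lower, 4 of 12, where 0.82% of all genes were. The count was 3 without wildtype mouse 2 or mutant mouse 3, 2 without any other mouse and 0 with the acinar covariate, and it was 6 with DESeq2 and 7 without a filter. Of the 12, 7 were lower without overlap, where 9.89% of all genes were. *Trpm5* fell by 1.65 on the log2 scale (SE 0.24, adjusted p = 0.0053) and in *Pax4* βiKO mice by 1.14 (SE 0.09, adjusted p = 0.00732), the only identity gene called there, 1 of 12 where 0.0893% of all genes were, with 0 to 1 called when 1 mouse was left out and 3 by DESeq2. *Mafa* was at 123, 185 and 193 CPM in HFD-fed wildtype and 73.3, 78.1 and 67.2 CPM in HFD-fed mutant mice, below all wildtype mice and not called (-1.20, adjusted p = 0.0823), and *Ins1* (0.13) and *Ins2* (0.38) overlapped. In *Pax4* βiKO mice 9 of the 12 were lower without overlap, where 16.7% of all genes were.

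The genes whose log2 CPM followed *Aldh1a3* most closely over the 12 mice of the first table, among 9220 named genes with a mean of at least 5 CPM, were *Cnpy2* and *Stk32a* (Pearson r = 0.98 for both), *Vgf*, *Dio1* and *Tsta3* (r = 0.97 for each). Their Spearman rho was 0.90, 0.83, 0.93, 0.87 and 0.91. Over the 5 mice of the second table r was 0.95 for *Cnpy2*, 0.91 for *Stk32a* and 0.94 for *Vgf*, 0.67 for *Tsta3* and 0 for *Dio1*, a deiodinase of thyroid hormone at 182 and 98.9 CPM in the 2 control mice. For *Serpina7* they were *Sec11c*, *Igsf5*, *Hsp90b1*, *Cd200* and *Reep5*, with r from 0.96 to 0.97 and rho from 0.66 to 0.83. *Sec11c* is a subunit of the signal peptidase and *Hsp90b1* a chaperone of the endoplasmic reticulum. Their r in the second table ran from 0.53 (*Reep5*) to 1.00 after rounding (*Cd200*). No gene was in both lists of 5. *Aldh1a3* and *Serpina7* themselves had r = 0.90 and rho = 0.65 over the 12 mice, and r = 0.77 after each group's mean was taken out. These values describe mice that share library, depth and group, and the HFD-fed mutants stand apart in them.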

How the data were processed

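Islet RNA was extracted with TRIzol and made into stranded total RNA libraries. The authors aligned reads to mm10 with STAR 2.7.1 and deposited gene-level expected counts from RSEM 1.3.3 and tximport; the annotation release is not given in the sources used here. They were rounded to whole numbers and not adjusted for transcript length.

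Each table was fitted on its own in edgeR 4.0.16 (R 4.3.3): TMM normalization (factors 0.692 to 1.30 and 0.934 to 1.05), filterByExpr with a minimum count of 10, and a quasi-likelihood model with 1 coefficient per group. Adjusted p-values are Benjamini-Hochberg over the 19137 and 20167 genes tested. Log2 CPM used a prior count of 2. Exact intervals, made on counts pooled over mice, and floors of 3 counts reflect counting error alone and not the spread between mice. Reads were counted without molecular identifiers, so even the counting error may be larger. Labels call replicates biological. Symbols and exon lengths came from GENCODE M21, which named 90.7% and 89.5% of tested identifiers.

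All members are named in every comparison; genes of other lists are named where called between genotypes, with *Mafa*, *Slc2a2*, *Ins1* and *Ins2*, and the 5 genes closest to *Aldh1a3* and to *Serpina7*. Exceptions named for their values are *Dio1* in the second table, *Cd37*, *Cd53* and *Tspan8* on the SCD, and single mice. Members and lists were chosen with earlier results of these data known. Code was tested on simulated data. Alternatives included DESeq2 1.42.0.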

Additional observations from a re-analysis of the deposited data

Results flagged for a closer look

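For *Serpina7* the genotype effect passed the test of a difference between the diets, a call that depended on the mice included. On the SCD *Pax4* R192H islets were at 9.95 ± 2.39 CPM and wildtype islets at 10.9 ± 1.40 CPM (SD, n = 3), and on the HFD they were at 90.2 ± 9.91 and 12.5 ± 7.19 CPM, an interaction of 3.00 on the log2 scale (edgeR adjusted p = 0.0264). The summed acinar markers were highest in the same HFD-fed *Pax4* R192H mice, at 38400 to 102000 CPM, and diet and age changed together. With the acinar covariate the interaction was 2.78 (adjusted p = 0.464) and in the fit blocked by replicate number it was 3.07 (adjusted p = 0.0562), neither called. The call was also lost in 8 of the 12 fits that each left out 1 mouse (2.71 to 3.09, adjusted p from 0.0517 to 0.0891). Single-sample outliers could not be looked for in groups of 2 or 3 mice.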

How the results depend on the processing

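With 2 or 3 mice per group, calls moved more than sizes. The 2 members called between genotypes on the HFD became 0 with the acinar covariate and 1 when only the compared groups were fitted (*Aldh1a3*, adjusted p = 0.0737), and 1 to 2 when each mouse was left out in turn. The interaction count of 1 became 2 without a filter, 0 with the acinar covariate, and 0 to 1 on leaving out mice. Between diets in *Pax4* R192H mice the count of 2 became 0 with the acinar covariate (2 on leaving out any mouse), and in wildtype mice the count of 0 became 1 without a filter, 1 where every sample had at least 10 counts, 1 with DESeq2 and 0 to 1 on leaving out mice. In *Pax4* βiKO mice the count of 2 became 4 without a filter and 0 to 2 on leaving out mice. On the SCD it was 0 in every alternative run. RLE size factors and leaving out the 2 largest genes (unnamed in the first table, *Ins2* and *Iapp* in the second) changed no call on a tested member; *Gast*, let in by the latter, was called between diets in mutant mice (3.62, adjusted p = 0.0208), as by DESeq2 (3.75, adjusted p = 0.016). The causes were not tested.

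Deviations of same-numbered mice from their group means correlated from -0.3 to 0.19 in the first table and at 0.07 and 0.04 in the second. Those of differently numbered mice of the first table ran from -0.31 to 0.4. Deviations within groups of 2 or 3 mice cannot show whether the numbers pair mice, and the labels name no pairing. With the replicate number as a block the interaction count was 0 (*Serpina7* 3.07, adjusted p = 0.0562), and no other call on a member changed.

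Genes called in all moved from 437 on the HFD to 1279 without a filter, 918 with DESeq2, 147 with the block, 1944 with the duct and 0 with the acinar covariate; from 25 in the interaction to 708, 314, 0, 265 and 0, and 80 with at least 10 counts in every sample; from 71 between diets in wildtype mice to 924, 540, 22 and 193 (duct), 115 where every sample had at least 10 counts, and 1 with only the compared groups; from 2996 in mutant mice to 51 with the acinar covariate; and from 18 in *Pax4* βiKO to 697, 251, 88 and 5 (duct). On the SCD 0 became 261 without a filter, 23 with DESeq2 and 1 with only the compared groups. Leaving out each mouse in turn gave 93 to 498 genes on the HFD, 0 to 101 in the interaction, 5 to 125 between diets in wildtype and 1706 to 2248 in mutant mice, 2 to 28 in *Pax4* βiKO mice and 0 on the SCD.

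Signs turned for low or flat members. *Neurog3* on the HFD was 0.57 with the acinar and 0.10 with the duct covariate, *Slc5a10* on the SCD 0.76 and *Sox9* between diets in wildtype mice 0.57 with the duct covariate, and *Cd81* between diets in mutant mice 0.05 with the acinar covariate. Leaving out mice gave log2 ranges across 0 for *Neurog3* on the HFD (-0.62 to 0.21), between diets in mutant (-0.20 to 1.06) and wildtype mice (-0.33 to 0.07) and in the interaction (-0.12 to 1.14); for *Sox9* on the HFD (-1.09 to 0.54), on the SCD (-1.15 to 1.05), between diets in wildtype mice (-1.77 to 0.81) and in the interaction (-1.63 to 0.95); for *Slc5a10* on the SCD (-0.83 to 1.08), between diets in mutant (-0.05 to 0.59) and wildtype mice (-1.34 to 0.57) and in the interaction (-0.29 to 1.60); for *Serpina7* on the SCD (-0.34 to 0.01) and between diets in wildtype mice (-0.37 to 0.47); and for *Cd81* between diets in mutant mice (-0.11 to 0.05). The 5 genes closest to *Aldh1a3* and to *Serpina7* were the same 5 with a prior count of 0.5.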
